A study of Homo sapiens with 9 samples.

Results

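The comparison described here sets 3 HEK293 libraries with Flpo and Cas9 against 3 HEK293 libraries with Cas9 alone, which are 6 of the 9 libraries of the series. The libraries were placed in their groups by label. HEK293 is a human embryonic kidney cell line that grows in culture. In the sample names the groups are CC_Cas9 (called Cas9 here) and CC_Cas9_Flpo (called Flpo). Both groups therefore carry Cas9 and the prefix CC, which the labels leave unexplained. The remaining 3 libraries (called Cre) carry Cas9 and the recombinase Cre and enter only where named. No time point, dose or clone was given, and nothing in the labels says that the replicates came from separate cultures, so p-values measure only the spread between these libraries, which may be technical.

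Cas9 is a nuclease that a guide RNA directs to a DNA sequence. Flpo is a form of the yeast recombinase Flp with codons changed for mammalian cells. It joins, inverts or cuts out DNA between FRT sites, which human chromosomes do not naturally carry, and is used to switch engineered cassettes. The question the comparison answers is how the RNA of cells with the recombinase differed from that of cells with the nuclease alone.

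The table of estimated counts has a row named CAS9, which has no place in the human annotation. It stood at 47.4, 75.2 and 125 CPM (counts relative to the TMM-scaled total of the library) in Cas9 replicates 1, 2 and 3, and at 880, 185 and 1665 CPM in Flpo. The groups did not overlap, and the log2 difference of Flpo from Cas9 was 3.46 ± 0.84 (SE; edgeR quasi-likelihood test, adjusted p = 0.069), which missed the threshold of 0.05. Without Flpo replicate 2 it was 3.93 (adjusted p = 0.0044). A row named EGFP held 3, 0 and 2 counts in Cas9 and 0, 0 and 1 in Flpo. The Flpo label itself was not checked through a message of the recombinase here. Of 10 marker genes of HEK293 cells, 6 passed the filter on low counts. The keratins KRT8 and KRT18 were present in all 6 libraries, at 304 CPM or more and 46.5 CPM or more. The summed level of the 10 markers ran from 700 to 1855 CPM in Cas9 and from 1953 to 6505 CPM in Flpo. The extraction text of the labels speaks of liver, and 2 of 15 liver markers passed the filter, TF and HP. The summed level of the 15 was 95.6, 35.0 and 30.8 CPM in Cas9 replicates 1, 2 and 3. In Flpo it was 20.7, 139 and 10.5 CPM, highest in replicate 2. That library had 3 of the 15 without a count, beside 8 to 12 in the other Flpo and Cas9 libraries. In these bulk samples fewer cells of a type and less RNA per cell cannot be told apart.

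Library totals ran from 993902 to 3761779 estimated counts in Cas9 and from 4989524 to 8833491 in Flpo. Every Flpo library was deeper than every Cas9 library, so depth and group cannot be told apart. Flpo replicate 2 (Flpo 2) stood apart from the other Flpo libraries. Its rank correlation across genes was 0.775 with Flpo 1 and 0.684 with Flpo 3, while Flpo 1 and Flpo 3 reached 0.962 with each other. With the Cas9 replicates it was 0.756, 0.825 and 0.839. The Cas9 libraries were not uniform either. Cas9 replicate 1 reached 0.811 with replicate 2 and 0.706 with replicate 3, and replicates 2 and 3 reached 0.916. Cas9 replicate 3 stood at 0.836 with Flpo 1, above its value with Cas9 replicate 1. These are descriptions across genes, which are not independent replicates. For each gene list described below, the count of members called without Flpo 2 is therefore given as well.

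With all 9 libraries in the fit, 26 of 11905 tested genes were higher in Flpo (0.218% of those tested) and 1 was lower (0.0084%), so 0.227% changed in either direction. With only the Flpo and Cas9 libraries in the fit edgeR called 0 genes, beside 2807 at an unadjusted p under 0.05, so the 27 calls depend on having the Cre libraries in the fit. At an unadjusted p under 0.05 the counts were 1571 higher (13.2%) and 807 lower (6.78%). Libraries of the groups did not overlap for 1526 genes higher in Flpo (12.8%) and 1448 lower (12.2%). Without TMM scaling this split was 742 higher and 2749 lower, and the median log2 difference of all tested genes moved from 0.05 to -0.48. Directions below are therefore read against that median. DESeq2 with its own size factors called 714 genes higher and 351 lower. Without Flpo 2, edgeR called 1376 genes higher (10.9%) and 1309 lower (10.4%). All 27 genes also passed the threshold in the contrast of Flpo with Cre, which shares the Flpo libraries, and all 27 were called again without Flpo 2. With Cas9 replicate 1, Cas9 replicate 2, Flpo 1, Flpo 3 or Cre replicate 2 left out instead, edgeR called 0 genes, beside 1390 to 2887 at an unadjusted p under 0.05. The calls thus rested in part on the shallow Cre replicate 2. It was 37 genes without Cre replicate 1 and 12 without Cre replicate 3 that edgeR called.

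**Figure D1:**
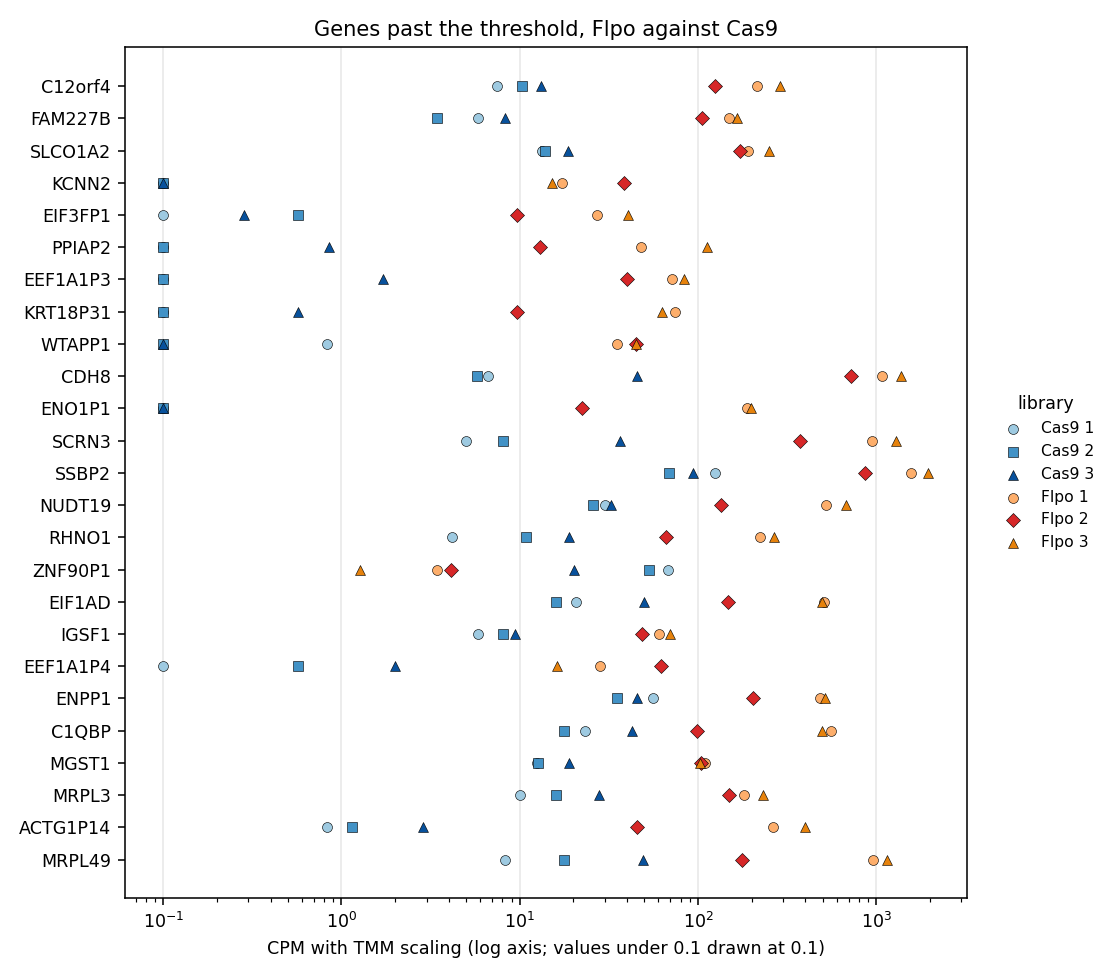
Level of 25 of the 27 genes past the threshold in each Cas9 and Flpo library, in CPM with TMM scaling on a log axis, ordered by p. Each point is 1 library. The 3 Flpo libraries lie above the 3 Cas9 libraries for 24 of these genes and below them for ZNF90P1, and Flpo 2 often lies between the Cas9 libraries and the other Flpo libraries.

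Among the 27 were 8 protein-coding genes whose annotated transcripts hold one stretch of sequence in common. Those described here are SSBP2, SLCO1A2, SCRN3, C12orf4, CDH8, IGSF1 and FAM227B. SSBP2 encodes a single-stranded DNA binding protein, SLCO1A2 an organic anion transporter, CDH8 a cadherin and IGSF1 an immunoglobulin superfamily membrane protein. The shared stretch was found by counting words of 31 bases in GENCODE 29 transcripts, after the values had been seen, and 197 words occurred in at least 4 of the 27 genes. No repeat annotation was used here, and whether the counts came from these genes' own transcripts or from other copies of the stretch was not tested.

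SSBP2 stood at 125, 68.3 and 93.1 CPM in the Cas9 replicates and at 1556, 865 and 1961 CPM in the Flpo replicates. The log2 difference was 3.94 ± 0.66 (SE, n = 3 each; edgeR, adjusted p = 0.035). CDH8 stood at 6.65, 5.74 and 45.4 CPM in Cas9 and at 1079, 724 and 1378 CPM in Flpo, with a log2 difference of 5.74 ± 0.95 (adjusted p = 0.035 with edgeR). In both genes the lowest Flpo library, Flpo 2, was far above the highest Cas9 library. SCRN3 read 4.99, 8.03 and 36.6 CPM in Cas9 and 949, 375 and 1283 CPM in Flpo. Cas9 3, the deepest Cas9 library, was the highest Cas9 library in CDH8 and SCRN3. C12orf4 and FAM227B had the smallest adjusted p of all genes tested, 0.024 each with edgeR. C12orf4 ran from 7.48 to 13.1 CPM in Cas9 and from 124 to 287 CPM in Flpo. FAM227B ran from 3.44 to 8.28 CPM in Cas9 and from 105 to 165 CPM in Flpo. SLCO1A2 and IGSF1 rose by 3.74 and 2.91 on the log2 scale. Flpo 2 was the lowest Flpo library in all 7 and still above every Cas9 library. Without Flpo 2 the log2 differences of the 7 ran from 3.02 for IGSF1 to 6.01 for SCRN3.

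A further 16 tested genes that did not pass the threshold held at least 30 of the shared words. Of these, 11 were higher in every Flpo library than in any Cas9 library and 1 was lower, beside 12.8% and 12.2% over all tested genes. Their median log2 difference was 2.87, or 2.43 without TMM and 2.05 without Flpo 2, and single genes ran from -0.87 to 5.68. The largest level was that of RASEF, a Rab-related GTPase gene, at 96.4, 72.3 and 668 CPM in Cas9 and 10004, 8590 and 11427 CPM in Flpo (log2 difference 5.16, edgeR adjusted p = 0.068). WDR72 was at 0, 0 and 8.57 CPM in Cas9 and 164, 163 and 207 CPM in Flpo. FSTL4, ARHGAP25, GNGT1 and RPL23AP82 also separated the groups, with log2 differences of 4.72, 3.91, 4.06 and 3.65. Several of the 11 genes, among them WDR72, GNGT1 and ARHGAP25, were low in Cas9 and passed the filter on low counts through the Flpo libraries. Such genes could only come out higher. BCAS3, PHLPP1, NEO1, ADGRV1 and NRXN3 hold the words too and did not follow: their log2 differences were -0.38, -0.87, -0.12, -0.15 and -0.62. The difference fell off with the number of words held. Over the 8 genes outside the 27 with at least 60 words the median was 3.34, and over the 33 with at least 10 words it was 0.56. Over the 882 with at least 1 word it was -0.27, with 109 genes higher and 102 lower in all Flpo libraries. Because the words were chosen from genes that had passed the threshold, these counts are a description with no test.

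**Figure D2:**
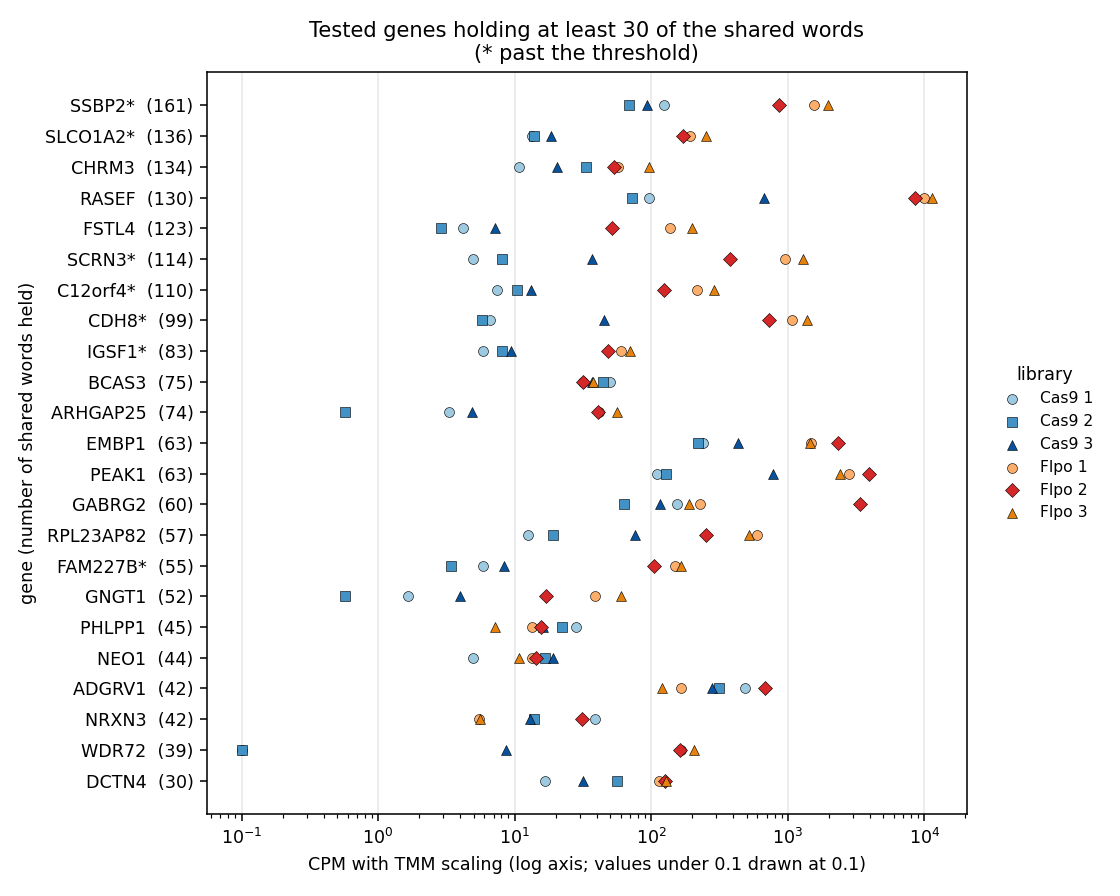
Level of 23 of the 24 tested genes whose transcripts hold at least 30 of the 197 shared words, in CPM with TMM scaling on a log axis, 1 point per library and ordered by the number of words held (in brackets). Stars mark 7 genes past the threshold. Most genes have all Flpo points, Flpo 2 included, to the right of the Cas9 points, while BCAS3, NEO1, ADGRV1 and NRXN3 do not separate the groups.

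The place of the stretch in the transcripts varied. In SSBP2 the first shared word begins at base 52 of a 573-base transcript, and 2 of 20 annotated SSBP2 transcripts hold the words. In CDH8 it begins at base 40 of a 539-base transcript, which is 1 of 14. In C12orf4 it begins at base 21 of a 574-base transcript, which is 1 of 9. It begins further in for RASEF, EMBP1 and PEAK1, at bases 857 of 1765, 1033 of 2420 and 3076 of 4516. The words run on the same strand as in SSBP2 in most of the 24 genes, on the opposite strand in RASEF, EMBP1, PEAK1, PHLPP1 and NRXN3, and on both in IGSF1. The deposited values are per gene, so the transcript that gained counts was not resolved.

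Processed pseudogenes are copies of messages written back into the genome. They made up 291 of the genes tested (2.44%) and 10 of the 27 called genes (37.0%). Of the 10, 9 rose, among them EIF3FP1, PPIAP2, EEF1A1P3, EEF1A1P4, KRT18P31, WTAPP1, ENO1P1 and ACTG1P14. Their counts in Cas9 were at or near 0, so they passed the filter on low counts through the Flpo libraries and could only come out higher. Their number is therefore a description. EIF3FP1 had 0, 1 and 1 counts in Cas9 and 158, 38 and 255 in Flpo. KRT18P31 had 0, 0 and 2 counts in Cas9 and 430, 38 and 395 in Flpo. ACTG1P14, a copy of the cytoplasmic gamma actin message, had 1, 2 and 10 counts in Cas9 and 1531, 177 and 2487 in Flpo. These genes separated the groups, with Flpo 2 the lowest Flpo library in all 3. ENO1P1, a copy of the enolase message, had no count in the Cas9 libraries and 1090, 87 and 1235 counts in Flpo, and was at least 54.5-fold higher in Flpo against a floor of 3 counts per library. It lies inside the locus of EDARADD, an adaptor gene of ectodysplasin signalling, and all of its 31-base words also lie in EDARADD transcripts. EDARADD read 11.6, 13.2 and 46.0 CPM in Cas9 and 201, 60.3 and 229 CPM in Flpo. The counts of the other copies are uncertain too, because they hold words found in other genes, which were not always the parent. EIF3FP1 shared 13.3% of its words with its parent EIF3F. WTAPP1 shared most with MMP1 (2.79% of its words), and ACTG1P14 with POTEE, POTEI and POTEJ (5.77% each).

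The parent genes of the copies were themselves mostly higher in Flpo 1 and 3. ENO1 read 148, 376 and 946 CPM in Cas9 and 4062, 889 and 3754 CPM in Flpo (log2 difference 2.56, edgeR adjusted p = 0.14). PPIA, the cyclophilin A gene, read 171, 672 and 995 CPM in Cas9 and 3912, 1339 and 3145 CPM in Flpo. EEF1A1, the elongation factor that brings aminoacyl-tRNA to the ribosome, read 470, 1192 and 2322 CPM in Cas9 and 8652, 2864 and 6762 CPM in Flpo. None of these 3 parents passed the threshold with all libraries, and without Flpo 2 the adjusted p was 0.025 for ENO1, 0.037 for PPIA and 0.051 for EEF1A1. The 1 called gene that was lower was ZNF90P1, a zinc finger pseudogene, at 68.1, 53.4 and 20.3 CPM in Cas9 and 3.45, 4.09 and 1.28 CPM in Flpo. Its log2 difference was -4.00 ± 0.68 (SE, adjusted p = 0.036 with edgeR).

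The other called genes included several with mitochondrial products. MRPL49, a protein of the large mitochondrial ribosomal subunit, read 8.31, 17.8 and 49.4 CPM in Cas9 and 963, 175 and 1142 CPM in Flpo, a log2 rise of 4.89 ± 0.90 (adjusted p = 0.046, edgeR). MRPL3, of the same subunit, read 9.97, 16.1 and 27.7 CPM in Cas9 and 181, 150 and 232 CPM in Flpo, a rise of 3.36 ± 0.61. C1QBP, a mitochondrial matrix protein, read 23.3, 17.8 and 42.5 CPM in Cas9 and 559, 98.9 and 497 CPM in Flpo. MGST1, a microsomal glutathione transferase, read 12.5, 12.6 and 18.8 CPM in Cas9 and 109, 105 and 102 CPM in Flpo. Flpo 2 was well below the other Flpo libraries in MRPL49 and C1QBP and level with them in MGST1. ENPP1, an ecto-enzyme that makes pyrophosphate from ATP, ran from 35.0 to 55.7 CPM in Cas9 and from 202 to 513 CPM in Flpo. NUDT19, EIF1AD and RHNO1, the last a partner of the checkpoint clamp that loads at damaged DNA, rose by 3.91, 3.73 and 3.99. KCNN2, a calcium-activated potassium channel gene, had no count in Cas9 and 100, 151 and 95 counts in Flpo, and was at least 9.49-fold higher. It passed the filter on low counts through the Flpo libraries and could only come out higher, so its call is a description.

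Genes were then grouped into 32 lists by role. With all libraries only the mitochondrial ribosomal list held called genes, the 2 named above. For the lists, counts of members whose groups did not overlap are read against 12.8% higher and 12.2% lower over all tested genes, and counts called without Flpo 2 against 10.9% higher and 10.4% lower. Where counts without overlap are given without TMM, the 11905 tested genes had 742 higher and 2749 lower. List medians stand beside 0.05 for all genes with all libraries and 0.04 without Flpo 2. No list was tested as a set.

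**Figure D3:**
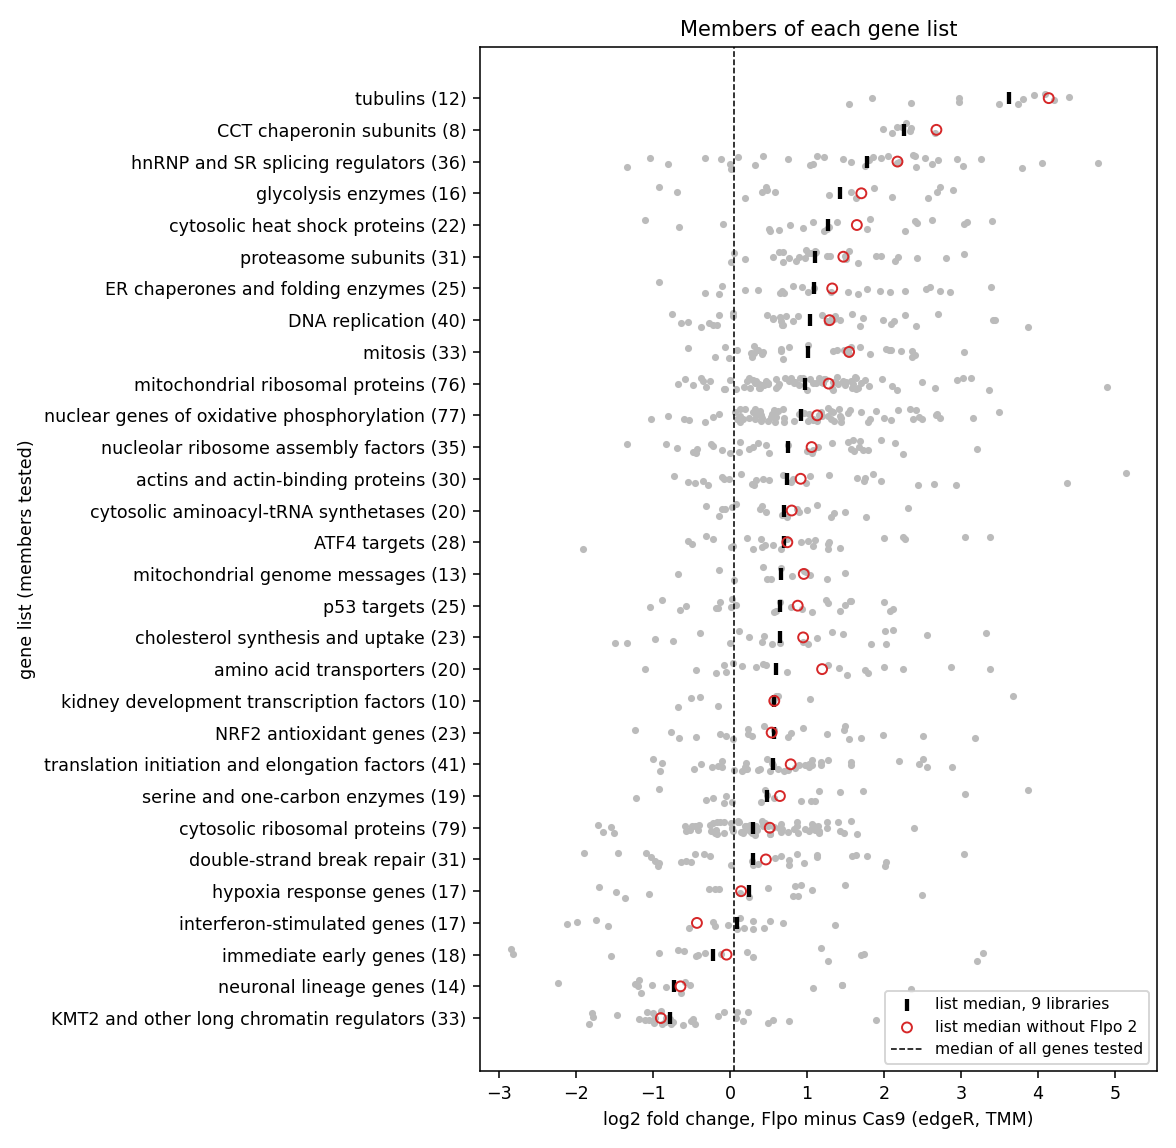
Log2 difference of Flpo from Cas9 for each tested member of 30 gene lists (grey points), with the list median over all 9 libraries (black tick), the median without Flpo 2 (red circle) and the median of all tested genes (dashed line). Tubulins, the CCT chaperonin and splicing regulators have the highest medians, 3.62, 2.26 and 1.77, and the long chromatin regulators the lowest, -0.78.

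The highest list was that of the tubulins, the subunits of microtubules, with a median log2 difference of 3.62 over 12 tested genes and of 4.14 without Flpo 2. Members without overlap numbered 4, all higher (33.3%), or 3, all higher, without TMM. Without Flpo 2, 11 of 12 were called higher (91.7%). TUBB, the most abundant beta tubulin, read 939, 1196 and 2377 CPM in Cas9 and 23912, 2018 and 24968 CPM in Flpo. TUBA1C read 42.4, 83.8 and 418 CPM in Cas9 and 5089, 688 and 3546 CPM in Flpo. TUBA4A read 13.3, 10.9 and 20.3 CPM in Cas9 and 496, 41.1 and 413 CPM in Flpo. Flpo 1 and Flpo 3 were far above all other libraries in each of them, and Flpo 2 was within the Cas9 range for TUBB and above it for the other two. The cytoplasmic actins moved in the same libraries. ACTB read 1057, 629 and 1366 CPM in Cas9 and 56576, 4078 and 47327 CPM in Flpo, a log2 difference of 5.14 ± 1.45 that missed the threshold (edgeR adjusted p = 0.095, and 0.016 without Flpo 2). ACTG1 read 2357, 1059 and 2153 CPM in Cas9 and 60180, 4654 and 50932 CPM in Flpo. The wider list of 30 actins and actin-binding proteins had a median of 0.74, with 5 higher without overlap (16.7%), 1 lower, and 12 called higher without Flpo 2 (40%), among them ARPC3 of the ARP2/3 complex. Its counts without overlap became 3 higher and 1 lower without TMM.

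The CCT chaperonin, a ring complex that folds newly made actin and tubulin, had a median of 2.26 over its 8 subunits and 2.68 without Flpo 2. All 8 were positive, 5 without overlap (62.5%), and 8 of 8 were called higher without Flpo 2. The counts without overlap became 2 higher and 0 lower without TMM. CCT5 read 19.9, 94.7 and 170 CPM in Cas9 and 698, 211 and 907 CPM in Flpo. TCP1, the subunit that names the complex, read 13.3, 83.8 and 86.0 CPM in Cas9 and 361, 119 and 451 CPM in Flpo. In both genes Cas9 1 was the lowest library and Flpo 2 stood just above Cas9 3. With Flpo 2 and Cas9 1 both left out the median was 2.21 and 8 of 8 were called higher, beside 8.83% over all genes tested in that fit.

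Other folding genes were also shifted. Over 22 cytosolic heat shock genes the median was 1.27, with 8 higher without overlap (36.4%) and none lower, and 10 called higher without Flpo 2 (45.5%). The counts without overlap became 4 higher and 1 lower without TMM. HSPA1B, a stress-inducible HSP70 gene, read 24.1, 16.1 and 31.7 CPM in Cas9 and 258, 87.4 and 417 CPM in Flpo. STIP1, which links HSP70 to HSP90, read 35.7, 65.4 and 123 CPM in Cas9 and 718, 187 and 995 CPM in Flpo. The abundant HSP90AA1 differed by 0.50 (edgeR adjusted p = 0.73), and by -0.075 without TMM. Over 25 chaperones and folding enzymes of the endoplasmic reticulum the median was 1.09, with 11 higher without overlap (44%) and 11 called higher without Flpo 2. For this list 6 were higher and 2 lower without overlap when TMM was left out. HSPA5, the main chaperone of that compartment, read 28.3, 71.7 and 108 CPM in Cas9 and 537, 147 and 826 CPM in Flpo. PDIA6, a disulfide isomerase, read 14.1, 24.1 and 33.1 CPM in Cas9 and 266, 41.7 and 445 CPM in Flpo. XBP1, a transcription factor of the unfolded protein response, ran from 5.82 to 14.8 CPM in Cas9 and from 21.5 to 103 CPM in Flpo. These 3 genes separated the groups, and each was called without Flpo 2 (edgeR adjusted p = 0.0060, 0.0019 and 0.0041).

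Splicing regulators of the hnRNP and SR families had a median of 1.77 over 36 genes, with 20 higher without overlap (55.6%) and 4 lower. Without TMM the counts without overlap were 8 and 5. Without Flpo 2, 21 were called higher (58.3%) and none lower. HNRNPH2 read 4.15, 10.9 and 12.9 CPM in Cas9 and 220, 22.5 and 543 CPM in Flpo. SRSF1, the founding SR protein, read 1.66, 9.18 and 12.6 CPM in Cas9 and 127, 18.4 and 262 CPM in Flpo. HNRNPA1 read 120, 416 and 583 CPM in Cas9 and 2238, 884 and 2699 CPM in Flpo. Flpo 3 was the highest library in each of these genes.

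**Figure D4:**
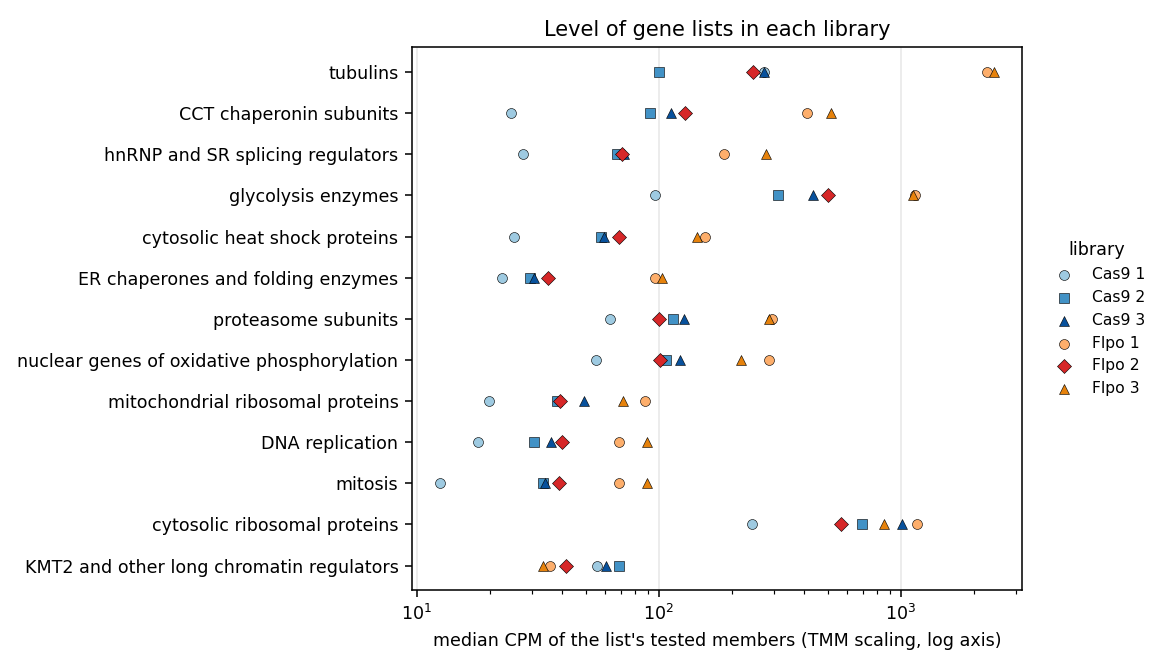
Median level of the tested members of 13 gene lists in each library, in CPM with TMM scaling on a log axis, 1 point per library. Flpo 1 and Flpo 3 lie together at the high end for tubulins and the CCT chaperonin, Flpo 2 lies among or just above the Cas9 libraries, and the long chromatin regulators run the other way, from 33.4 to 41.4 CPM in Flpo and from 55.7 to 68.3 CPM in Cas9.

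Genes of energy metabolism and protein turnover had higher medians as well. Over 16 glycolysis enzymes the median was 1.43, with 5 higher without overlap (31.2%) and 6 called higher without Flpo 2 (37.5%). The counts without overlap became 3 higher and 2 lower without TMM. LDHA, the lactate dehydrogenase subunit that makes lactate from pyruvate, read 88.1, 462 and 668 CPM in Cas9 and 3492, 856 and 3504 CPM in Flpo. GAPDH, often used as a reference gene, read 1052, 2865 and 5303 CPM in Cas9 and 6150, 2523 and 4060 CPM in Flpo, and its groups overlapped. Over 31 proteasome subunits the median was 1.11 and all 31 were positive, with 7 higher without overlap (22.6%) and 11 called higher without Flpo 2 (35.5%). For the proteasome 2 were higher and 1 lower without overlap when TMM was left out. PSMC4, an ATPase of the regulatory particle, read 35.7, 36.1 and 35.7 CPM in Cas9 and 265, 50.3 and 265 CPM in Flpo.

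Mitochondrial proteins are encoded in the nucleus and in the mitochondrial genome. Among 76 nuclear-encoded mitochondrial ribosomal proteins the median was 0.98, with 18 higher without overlap (23.7%), none lower, and 17 of 78 called higher without Flpo 2 (21.8%). Without TMM the counts without overlap were 7 higher and 6 lower. Among 77 nuclear genes of oxidative phosphorylation the median was 0.92, with 15 higher without overlap (19.5%) and 2 lower, and 20 called higher without Flpo 2 (26%). Without TMM those without overlap were 7 and 5. SDHB, the iron-sulfur subunit of succinate dehydrogenase, read 1.66, 11.5 and 18.0 CPM in Cas9 and 174, 24.8 and 165 CPM in Flpo. ATP5F1B, a catalytic subunit of ATP synthase, read 109, 550 and 728 CPM in Cas9 and 3622, 668 and 3305 CPM in Flpo. The 13 protein-coding messages of the mitochondrial genome had a median of 0.66 with 11 positive, and a median of 0.96 without Flpo 2. None was free of overlap and none was called, with or without Flpo 2. MT-CO2 read 3419, 9163 and 19457 CPM in Cas9 and 21279, 10812 and 14295 CPM in Flpo. Whether the mitochondrial and nuclear lists differ from each other was not tested.

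Translation genes showed a smaller shift. Of 79 cytosolic ribosomal proteins none was higher without overlap and 4 were lower (5.1%), RPS9, RPLP2, RPL28 and RPS28, and the list's median of 0.29 became -0.21 without TMM. Only RPL15 was called without Flpo 2, higher in Flpo, a gene named after its values were seen. RPLP2, a protein of the ribosomal stalk, read 2333, 2999 and 2414 CPM in Cas9 and 960, 913 and 587 CPM in Flpo. Over 41 translation factors the median was 0.56, with 6 higher without overlap (14.6%) and 4 lower (9.8%), close to the shares over all genes, and 7 called higher without Flpo 2. Without TMM 4 were higher and 9 lower without overlap. Over 35 nucleolar ribosome assembly factors the median was 0.75, with 7 higher (20%) and 2 lower, and 6 of 36 called higher without Flpo 2. Without TMM 4 were higher and 8 lower, which turns the balance. NPM1, the nucleophosmin gene, read 54.8, 236 and 279 CPM in Cas9 and 1055, 379 and 1274 CPM in Flpo.

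Amino acid supply genes were examined because ATF4, a transcription factor induced when translation initiation is curbed, controls many of them. Among 28 tested ATF4 targets the median was 0.70, with 6 higher without overlap (21.4%) and none lower, or 4 higher and 3 lower without TMM. Without Flpo 2, 6 were called higher (21.4%) and 2 lower. SLC7A5 and SLC3A2 encode the light and heavy chains of a transporter of large neutral amino acids. SLC7A5 read 1.66, 4.59 and 13.4 CPM in Cas9 and 73.3, 36.3 and 108 CPM in Flpo, a log2 difference of 3.37 ± 0.76 (edgeR adjusted p = 0.068, and 0.0064 without Flpo 2). SLC3A2 read 19.1, 67.7 and 78.0 CPM in Cas9 and 345, 103 and 341 CPM in Flpo. PSAT1, an enzyme of serine synthesis, read 4.99, 4.59 and 13.99 CPM in Cas9 and 71.1, 20.2 and 111 CPM in Flpo. These 3 genes separated the groups. TYMS, the thymidylate synthase gene, differed by 3.87 and was called without Flpo 2 (edgeR adjusted p = 0.0027). The 19 serine and one-carbon enzymes had a median of 0.48, which became -0.09 without TMM, and 5 were called higher and 1 lower without Flpo 2. The 20 cytosolic aminoacyl-tRNA synthetases had a median of 0.71, with 3 higher without overlap (15%) and 5 called higher without Flpo 2 (25%), IARS among them. Without TMM 1 synthetase was higher and 4 were lower without overlap.

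The promoters of the ATF4 targets were searched for TGATGNAA on either strand, the core of the element that ATF4 binds with C/EBP proteins. In RefSeq promoters (GRCh38) running from 250 bases before to 50 bases after the start, 9 of 28 matched targets held it (32.1%), beside 1217 of 27305 genes (4.46%). The 7 tested targets with the element had a median log2 difference of 0.73, with 1 gene higher without overlap. The 14 tested targets without it had a median of 0.83, with 4 genes higher. A match is a description of the letters and not a site in use.

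Cell cycle genes had medians near those of the heat shock and endoplasmic reticulum lists. Over 40 DNA replication genes the median was 1.04, with 13 higher without overlap (32.5%) and 1 lower, and 11 called higher without Flpo 2 (27.5%). Without TMM 10 were higher and 6 lower without overlap. PCNA, the sliding clamp of replication, read 13.3, 21.2 and 27.4 CPM in Cas9 and 311, 42.2 and 317 CPM in Flpo. RPA2, of the complex that coats single-stranded DNA, read 6.65, 18.4 and 31.4 CPM in Cas9 and 224, 58.0 and 341 CPM in Flpo. The more abundant MCM4 differed by -0.16 and its groups overlapped. Over 33 mitosis genes the median was 1.01, with 13 higher without overlap (39.4%), none lower, and 11 of 34 called higher without Flpo 2 (32.4%). The counts of mitosis genes without overlap became 5 higher and 1 lower without TMM. MAD2L1, of the spindle checkpoint, read 9.97, 14.3 and 15.1 CPM in Cas9 and 124, 27.6 and 175 CPM in Flpo. TOP2A differed by -0.071.

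DNA damage genes are of interest because both proteins act on DNA. Among 25 p53 targets the median was 0.65, with 6 higher without overlap (24%) and 2 lower, and 5 of 26 called higher without Flpo 2 (19.2%). Without TMM 5 were higher and 5 lower without overlap. PPM1D, a phosphatase that damps the damage response, read 11.6, 9.75 and 12.6 CPM in Cas9 and 55.0, 22.5 and 69.6 CPM in Flpo. TNFRSF10B, a death receptor, read 25.8, 13.2 and 30.6 CPM in Cas9 and 116, 61.1 and 101 CPM in Flpo. MDM2, which targets p53 for degradation, read 399, 218 and 322 CPM in Cas9 and 504, 580 and 543 CPM in Flpo, a log2 difference of 0.79 (edgeR adjusted p = 0.40, and 0.34 without Flpo 2). CDKN1A, the cell cycle inhibitor most used to follow p53, differed by 0.02, and was named after its values were seen. Among 31 double-strand break repair genes 7 were higher without overlap (22.6%) and 5 lower (16.1%), and the median of 0.29 became -0.21 without TMM, with 1 higher and 8 lower. Without Flpo 2, 5 of these genes were called higher and 1 lower. RNF168, a ubiquitin ligase at breaks, read 29.9, 30.4 and 24.8 CPM in Cas9 and 241, 72.1 and 387 CPM in Flpo. XRCC6, the smaller Ku subunit of end joining, read 126, 204 and 262 CPM in Cas9 and 940, 264 and 1190 CPM in Flpo. MRE11, the nuclease that trims broken ends, ran the other way, at 805, 285 and 199 CPM in Cas9 and 108, 157 and 81.6 CPM in Flpo.

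Signal-responsive genes pointed in both directions with TMM scaling. Among 18 immediate early genes 2 were higher without overlap (11.1%) and 4 lower (22.2%), and the median was -0.22. The counts of immediate early genes without overlap became 0 higher and 6 lower without TMM. Without Flpo 2, 3 of them were called higher and 2 lower. JUN, a subunit of AP-1, read 301, 345 and 269 CPM in Cas9 and 38.3, 51.1 and 37.995 CPM in Flpo, with all Flpo libraries alike. Its log2 difference was -2.84 ± 0.65 (edgeR adjusted p = 0.069, and 0.015 without Flpo 2). DUSP1, a phosphatase that turns off MAP kinases, and MYC ran the other way. DUSP1 read 15.8, 45.9 and 74.8 CPM in Cas9 and 529, 76.7 and 739 CPM in Flpo. MYC read 4.99, 1.72 and 4.85 CPM in Cas9 and 36.1, 6.13 and 65.9 CPM in Flpo. Among 17 interferon-stimulated genes 1 was higher without overlap and 2 were lower, and the median of 0.08 was -0.43 without TMM and -0.43 without Flpo 2. The counts of interferon genes without overlap became 0 higher and 4 lower without TMM. Without Flpo 2, 3 of 18 were called lower and 1, STAT2, higher. IFI27 read 14.96, 13.2 and 8.57 CPM in Cas9 and 2.76, 6.13 and 2.07 CPM in Flpo. Among 17 hypoxia genes 2 were higher without overlap and 2 lower, and 1 of 19 was called higher without Flpo 2. VEGFA read 9.97, 14.3 and 5.71 CPM in Cas9 and 4.14, 3.83 and 1.12 CPM in Flpo, and EGLN1, an oxygen-sensing hydroxylase, read 9.97, 11.5 and 13.4 CPM in Cas9 and 66.2, 27.3 and 104 CPM in Flpo. Among 23 NRF2 antioxidant genes 5 were higher without overlap (21.7%), including PRDX1 and FTH1, and 2 lower, with 5 called higher without Flpo 2. Among 23 cholesterol genes 4 were higher (17.4%) and 3 lower (13%), with 5 called higher without Flpo 2. When TMM was left out, the hypoxia genes had 1 higher and 3 lower without overlap. The NRF2 genes then had 5 higher and 2 lower, and the cholesterol genes 4 higher and 4 lower. CYP51A1, a sterol demethylase, read 113, 56.8 and 274 CPM in Cas9 and 1731, 668 and 2063 CPM in Flpo.

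The long chromatin regulators and the neuronal genes had the lowest medians of the 32 lists. KMT2 histone methyltransferases, CHD remodellers, BAF subunits and coactivators with long messages had a median of -0.78 over 33 genes, with 17 lower without overlap (51.5%) and none higher. Without TMM the median was -1.34 with 23 lower, and without Flpo 2 it was -0.90 with 6 called lower (18.2%) and 1, SRCAP, higher. With Flpo 2 and Cas9 1 both left out the median was -0.99, and 2 were called lower and 1 higher. Over all 12468 genes tested in that fit 716 were called lower and 1101 higher. KMT2B read 23.3, 29.3 and 18.6 CPM in Cas9 and 8.63, 7.41 and 3.83 CPM in Flpo. CHD6 read 237, 77.5 and 69.96 CPM in Cas9 and 32.8, 39.9 and 38.2 CPM in Flpo. In both genes Flpo 2 lay with the other Flpo libraries. SMARCA4 differed by 0.095 with overlap, and by -0.47 without TMM. Among 14 neuronal genes, which HEK293 cells express in part, the median was -0.73 with 3 lower without overlap, GAP43, SYP and NEFL, and it was 1.57 under a minimum count of 50. Without Flpo 2, 2 of 15 were called lower and 1 higher.

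Message length and base composition moved with these differences. Over all tested genes split into 5 bins by the length of the longest annotated transcript, the median log2 difference was 0.46 in the bin with the shortest transcripts and -0.29 in the bin with the longest. The median of that length was 9363 bases in the chromatin list, 4064 bases in the splicing list, 2344 bases in the CCT list and 1439 bases in the oxidative phosphorylation list. Of 5 bins by base composition, the one richest in G and C had 22.6% of genes lower without overlap and 3.37% higher, and the poorest had 8.003% lower and 17.9% higher. The part of length, base composition and depth in the list differences was not tested.

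The groups also differed in what filled the libraries. The row AC010970.1 is annotated as a processed pseudogene on chromosome Y. It held 9.99%, 21.9% and 17.7% of the counts in the Cas9 replicates and 1.69%, 3.35% and 0.591% in the Flpo replicates, without overlap. Whether its counts came from that locus or from similar RNA made elsewhere was not tested. Its mean share was 16.5% ± 6.04 in Cas9 and 1.88% ± 1.39 in Flpo (SD, n = 3 each). An exact two-sided permutation test gave p = 0.1, the smallest that 3 against 3 libraries allow, and 0.4 after adjustment over 24 shares. All other processed pseudogenes together held 0.659% to 1.16% in Cas9 and 0.894% to 1.24% in Flpo. The ubiquitin gene UBB held 0.047%, 0.102% and 1.24% in Cas9 and 3.32%, 0.798% and 2.10% in Flpo. Cas9 3 was above Flpo 2, so the groups overlapped. ACTG1 and ACTB held 3.95% and 3.71% of Flpo 1, 0.365% and 0.320% of Flpo 2, and 3.78% and 3.51% of Flpo 3, beside 0.285% or less in each Cas9 library.

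**Figure D5:**
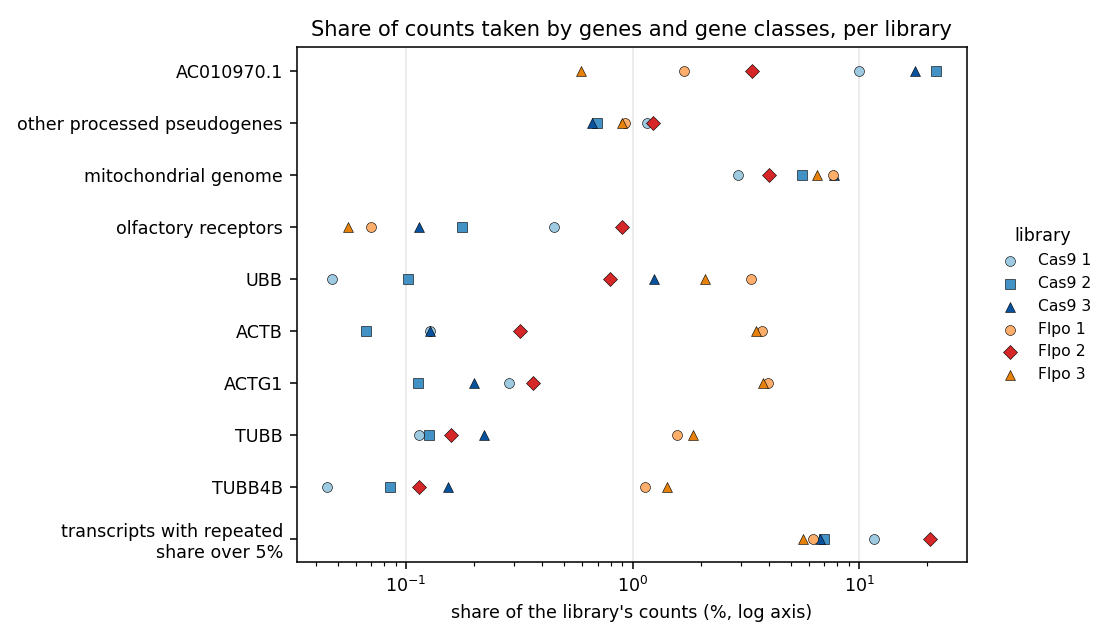
Share of each library's counts taken by single genes and gene classes, in percent on a log axis, 1 point per library. AC010970.1 lies between 9.99% and 21.9% in Cas9 and between 0.591% and 3.35% in Flpo. The actin and tubulin genes are highest in Flpo 1 and 3. In Flpo 2 the actins, but not the tubulins, lie above all Cas9 libraries. Flpo 2 has the largest share from transcripts rich in repeated words, 20.6%.

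Flpo 2 differed from its group in named ways. Of its counts 20.6% fell on genes with more than 5% repeated words in their transcripts, beside 6.28% in Flpo 1, 5.66% in Flpo 3 and 6.74% to 11.6% in the Cas9 libraries. Among 4578 genes with a mean of at least 200 counts in the Flpo libraries, 782 were higher in Flpo 2 by more than 1 on the log2 scale than the mean of Flpo 1 and 3, and 1723 were lower by more than 1. PARP15 read 675 and 595 CPM in Flpo 1 and 3 and 14880 CPM in Flpo 2. PCSK5, a proprotein convertase gene, read 43.5 and 23.9 CPM in Flpo 1 and 3 and 4101 CPM in Flpo 2. Of the 1376 genes called higher without Flpo 2, Flpo 2 lay on the same side of the Cas9 mean for 1316 (95.6%), at a median of 0.366 of the way from Cas9 to the other Flpo libraries. Of the 1309 called lower, it lay on the same side for 679 (51.9%), at a median of 0.018 of the way. The Cas9 values are shared by both sides of that comparison, so it is a description.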

How the data were processed

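Library preparation used TRIzol extraction and a TruSeq RNA kit, as the labels' protocols state. Salmon 0.14.1 and the build hg38 are named in the submitters' processing notes. The deposited values are estimated counts for 35876 gene symbols in 9 libraries, without normalization. Because 48.7% to 60.8% of the values above 0 in each library were fractions, reads were shared between genes, and the counts of copies and repeats are uncertain. Values were rounded before testing.

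The quasi-likelihood test of edgeR 4.0.16 under R 4.3.3 was run with TMM on all 9 libraries and no covariates. The default filter (minimum count 10, minimum total 15) kept 11905 genes. Benjamini-Hochberg adjusted p under 0.05 was the threshold. An SE is the size of the log2 difference over the root of the F statistic. The biological coefficient of variation was 0.556. The script was tested on simulated counts of this comparison (200 genes changed 4-fold among 11472 tested), of which 199 were recovered, with 7 false calls. The simulated dispersion of 0.05 was below that of these libraries, so this says nothing of power here. A floor of 3 counts was 0.48 to 2.49 CPM over the 6 libraries, and covers counting error only.

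The members and the 32 lists were chosen with earlier results of these data known. Genes were named by rule: all past the threshold, per list up to 3 without overlap with the largest difference and the most abundant member, the 5 largest genes of each group, and 10 each way for Flpo 2. Sequences, lengths and classes come from GENCODE 29 (GRCh38), which held 35378 of the symbols, and promoters from RefSeq. Alternatives used DESeq2 1.42.0, voom (limma 3.58.1), other filters and scalings, thinned counts, the replicate number as a block and left-out libraries. Some genes that the rule names, and the shared sequence itself, are not reported here. Leaving out Flpo 2 and Cas9 1 together was chosen after seeing the data.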

Additional observations from a re-analysis of the deposited data

How the results depend on the processing

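The count of 27 genes past the threshold became 1065 with DESeq2, 12 without TMM, 1169 without a filter, 2 with a minimum count of 50, and 7268 with voom and sample quality weights. It became 3 with counts thinned to 993805 per library, 1817 without both Flpo 2 and Cas9 1, and 0 with only the Flpo and Cas9 libraries (2807 at an unadjusted p under 0.05 in edgeR). Leaving out 1 library gave 0 to 2685, the highest without Flpo 2 and the lowest without Cas9 1, Cas9 2, Flpo 1, Flpo 3 or Cre 2. The 0 counts stood beside 1390 to 2887 genes at an unadjusted p under 0.05 in edgeR. All 27 kept their direction without Flpo 2, without both libraries, with DESeq2, voom and the replicate block, and all 27 were called in each of these but the block. With the replicate number as a block 6 were called, all among the 27. The deviations of same-numbered Flpo and Cas9 libraries correlated at -0.55, -0.26 and 0.53. No other pairing of libraries was computed, so these values cannot show whether same-numbered libraries were handled together, and the labels do not say. The interferon list's median was -0.068 under the block.

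The count of 2974 genes without overlap became 4635 without a filter, 1614 with a minimum count of 50 and 9501 without both libraries, and 3149 to 8277 when 1 library was left out.

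Medians that moved by more than the spread between replicates were as follows. Without TMM they were 0.22 for ATF4 targets, -0.091 for serine and one-carbon enzymes, 0.095 for amino acid transporters, 0.16 for aminoacyl-tRNA synthetases, 0.095 for cholesterol genes, 0.039 for translation factors, 0.12 for p53 targets, -0.43 for interferon genes, -0.28 for hypoxia genes, 0.074 for NRF2 genes, -0.21 for double-strand break repair, -1.34 for long chromatin regulators, -1.28 for neuronal genes and 0.064 for kidney transcription factors. Without a filter they were 0.97 for ATF4 targets, 1.011 for amino acid transporters, -0.089 for interferon genes and 0.27 for HEK293 markers. With a minimum count of 50, which tests fewer genes, they were 1.09 for ATF4 targets, -0.078 for interferon genes, 1.26 for hypoxia genes, -0.27 for double-strand break repair, 1.57 for neuronal genes, 1.22 for kidney transcription factors and 2.17 for HEK293 markers. Amino acid transporters moved to 0.97 with only the Flpo and Cas9 libraries and to 0.97 without both Flpo 2 and Cas9 1, where interferon genes stood at -0.15 and long chromatin regulators at -0.99. Interferon genes were at -0.50 with thinned counts. Leaving out 1 library gave 0.40 to 1.28 for amino acid transporters, 0.39 to 1.10 for cholesterol genes, 0.45 to 1.00 for ATF4 targets, -0.019 to 0.59 for double-strand break repair, -0.43 to 0.16 for interferon genes, -1.03 to -0.64 for neuronal genes, -2.05 to 0.84 for liver markers and -0.90 to -0.59 for long chromatin regulators.

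Left without the genes above 1% of a library, the difference of Flpo from Cas9 in share of counts was -0.56 percentage points for protein-coding genes and 0.27 for processed pseudogenes, since AC010970.1 is among the genes left out.

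Directions of single named genes reversed as follows. Without TMM, GAPDH was at -0.032, HARS at -0.11, HSP90AA1 at -0.075, RPS2 at -0.13, SMARCA4 at -0.47 and TF at -0.14. Under the replicate block RPS2 was at -0.020 and TF at -0.084. With 1 library left out, GAPDH was between -0.0077 (without Flpo 1) and 1.11, and RPS2 between -0.20 (without Cas9 1; -0.15 without Flpo 1) and 1.25. LARS was at 0.027 with voom and 0.031 without both libraries. SMARCA4 was at -0.088 with thinned counts and between -0.33 (without Flpo 3) and 0.37 when 1 library was left out, also below 0 without Cas9 2. TF was at -0.74 with voom, -0.90 without both libraries, and between -1.39 (without Flpo 2) and 0.89 when 1 library was left out. TOP2A was at 0.067 with a minimum count of 50, and between -0.29 and 0.074 when 1 library was left out, above 0 without Cas9 2 or Flpo 2. The cause of these changes was not tested. No gene with both groups near the floor can be compared at this depth.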

Other observations

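HLA-B, HLA-C and HLA-E, class I genes of the major histocompatibility complex whose products present peptides at the cell surface, were picked after their values were seen. These 3 genes were called higher without Flpo 2, and in none were the groups free of overlap with it. HLA-B read 39.9, 44.2 and 161 CPM in the Cas9 replicates and 2049, 86.6 and 2525 CPM in the Flpo replicates. HLA-C read 16.6, 78.6 and 227 CPM in Cas9 and 2458, 103 and 3212 CPM in Flpo. HLA-E read 32.4, 84.3 and 229 CPM in Cas9 and 1473, 131 and 2056 CPM in Flpo.

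Olfactory receptor genes, which code for odorant receptors of the nose, ran the other way within the Flpo group. Of 379 symbols 53 were tested. Their summed level was 3717, 1669 and 1227 CPM in Cas9, 1071 CPM in Flpo 1, 11438 CPM in Flpo 2 and 750 CPM in Flpo 3. OR56A4 read 10.01 and 8.78 CPM in Flpo 1 and 3 and 347 CPM in Flpo 2, and OR10H1 read 40.02 and 28.9 CPM in Flpo 1 and 3 and 884 CPM in Flpo 2. The pseudogene ROCK1P1 read 1.38 and 0.48 CPM in Flpo 1 and 3 and 751 CPM in Flpo 2, where no Cas9 library was above 3.14 CPM. CASR, the calcium-sensing receptor gene, read 223 and 192 CPM in Flpo 1 and 3 and 4949 CPM in Flpo 2.

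SIX2, a transcription factor of kidney progenitor cells, read 2.49, 2.30 and 4.85 CPM in Cas9 and 17.6, 10.5 and 101.4 CPM in Flpo, with a log2 difference of 3.67 ± 0.87 (edgeR adjusted p = 0.069, and 0.0055 without Flpo 2).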
